A study of Caenorhabditis elegans with 4 samples.

Results

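Chromosome III is one of the 6 nuclear chromosomes of Caenorhabditis elegans, and the sites described here are every CHD-3 peak that the deposited lists place on it. The list deposited for the whole series held 1727 peaks on III of 10512 nuclear peaks, or 16.4% of the list. The list of ChIP replicate 1 held 783 of 4822 peaks on III (16.2%) and that of ChIP replicate 2 held 299 of 1889 (15.8%). Peaks were taken by chromosome name alone, with no cut on score or width. Positions are in the WormBase WS220 build, and III was taken to end where its outermost peak in any list ends, at 13783723 bp, which makes it the shortest of the 6.

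CHD-3 occupancy was mapped by chromatin immunoprecipitation and sequencing (ChIP-seq) in 2 ChIP libraries, beside 2 input libraries that entered no comparison here. All 4 libraries came from hermaphrodites of the strain fem-2(b245), which carries this allele on chromosome III, kept at 20 °C. The stage is labelled as young adults with a germline, while the growth protocol describes harvest of gravid adults. The same affinity-purified rabbit polyclonal antibody, SDQ3907, served both ChIP libraries, and no library without CHD-3 was compared, so the specificity of the peaks was not tested here. The fem-2 mutation is shared by all libraries, so no peak can be set against a wild-type worm.

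CHD-3 is an ATPase of the Mi-2 family. Such enzymes move nucleosomes with the energy of ATP, and in animals they form part of histone-deacetylating NuRD complexes. The worm has a second Mi-2 protein, LET-418, and both are known for roles in development. The worm's autosomes share a layout in which a gene-dense centre of low recombination lies between 2 repeat-rich arms of high recombination. The chromosomes have no single point centromere, so the arms are defined by recombination and gene density. The fem-2 gene encodes a protein phosphatase of the sex-determination pathway that is needed for male fates.

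Chromosome III carried the most CHD-3 peaks for its length in each of the 3 lists. Replicate 1 showed 56.8 peaks per Mb of III, against 39.0 on V to 55.2 on X among the other 5 nuclear chromosomes. Replicate 2 had 21.7 per Mb, against 15.6 on V to 20.7 on I. The series-level list had 125.3 per Mb, against 86.4 on V to 117.4 on X. Over the replicates the density on III was 39.2 ± 24.8 peaks per Mb (SD, n = 2), and this spread reflects the different length of the 2 lists. The lead over the next chromosome was small in both replicates, 55.2 on X and 20.7 on I.

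The covered length gave the same first place. Replicate 1 peaks covered 14.4% of III, replicate 2 peaks 4.77% and series-level peaks 6.67%. The highest values elsewhere were 14.0% on X, 4.33% on I and 6.59% on X. With 2 libraries of one kind, no test over samples could reach a threshold, and peaks of one chromosome are not replicates, so the order of the chromosomes is a description of these lists. III also led each list in its upper 50% by score and after peaks closer than 200 bp were merged.

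The first place of III was also seen without the series-level peaks that neither replicate supports. With those left out, a choice made after the data were seen, III had 105.5 series-level peaks per Mb and X, the next, 99.7.

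Along III, peaks were densest in the centre, and the arms were similar to each other. Arms were taken as the outer 25% of the length on each side, from 1 to 3445930 and from 10337793 to 13783723. In replicate 1 the left arm had 156 peaks (45.3 per Mb), the centre 469 (68.1 per Mb) and the right arm 158 (45.9 per Mb). In replicate 2 these were 73 (21.2 per Mb), 159 (23.1 per Mb) and 67 (19.4 per Mb). In the series-level list they were 373 (108.2 per Mb), 993 (144.1 per Mb) and 361 (104.8 per Mb). The centre was thus the densest part in all 3 lists, by a wide margin in replicate 1 and a narrow one in replicate 2.

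The centre of III was the densest centre of the 6 chromosomes in each list. The next values were 61.5 peaks per Mb on II for replicate 1, and for replicate 2 and the series-level list 22.3 and 127.7, both on I. The left arm of III was the densest left arm for the series-level list and for replicate 2, and in replicate 1 it came after X (46.7). The right arm of III did not stand out, with 3 as its rank in replicate 1 and the series-level list and 4 in replicate 2.

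The arms of III held 40.1% of the peaks of replicate 1 (95% exact interval 36.6 to 43.6%), 46.8% of those of replicate 2 (41.1 to 52.7%) and 42.5% of the series-level list (40.2 to 44.9%). The share was 43.5 ± 4.75% over the replicates (SD, n = 2), in 50% of the length. These shares were near those of the other 5 chromosomes together, which were 40.2%, 46.9% and 42.5%. These intervals cover counting error only, as if each peak were independent of its neighbours. The interval of replicate 2 included 50%. Whether the arms are less dense than the centre in that library was not tested.

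Left over right arm density on III gave ratios of 0.99 (replicate 1), 1.09 (replicate 2) and 1.03 (series-level). On the other chromosomes the ratio ran from 0.52 on II to 1.32 on V in replicate 1 and from 0.59 on II to 1.26 on IV in replicate 2. In replicate 2 chromosome I, at 0.92, was about as balanced as III. The median peak lay 49.8% of the way along III in replicate 1 and 46.2% in replicate 2.

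**Figure D1:**
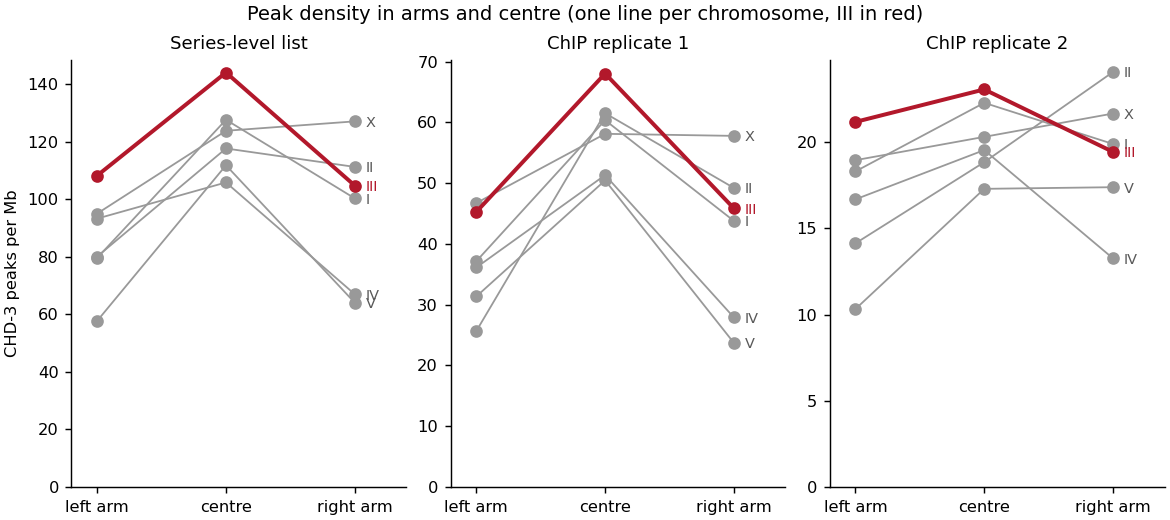
Peaks per Mb (y axis, from 0) in the left arm, centre and right arm (x axis) of each nuclear chromosome, 1 line per chromosome, 1 panel per peak list. The centre of III (red) is the highest centre in each panel, at 144.1, 68.1 and 23.1 peaks per Mb.

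The higher density of III was spread along its length, with some local summits. When each chromosome was divided into 20 bins of 5% of its length, III exceeded all other chromosomes in 7 bins by replicate 1, in 5 by replicate 2 and in 7 by the series-level list. In the same order it lay above the median of the others in 15, 15 and 14 of the 20 bins, and below all others in 1, 2 and 0. Other chromosomes led bins too. In replicate 2, II led more bins than III and I led as many, while III led the most in replicate 1 and the series-level list. In 3 bins, III exceeded all others in all 3 lists.

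The first of these was in the left arm, 10 to 15% of the way along III, where replicate 1 had 47.9, replicate 2 had 33.4 and the series-level list had 142.2 peaks per Mb. The highest values in the same bin elsewhere were 45.1, 18.1 and 90.3. The second was just inside the centre, at 25 to 30%, with 88.5, 36.3 and 194.4 peaks per Mb against at most 76.8, 29.3 and 145.6. The third, at 40 to 45%, had 87.1, 23.2 and 211.8 against at most 78.3, 22.9 and 155.3. The margin of replicate 2 was widest in the left-arm bin and slight in the third.

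**Figure D2:**
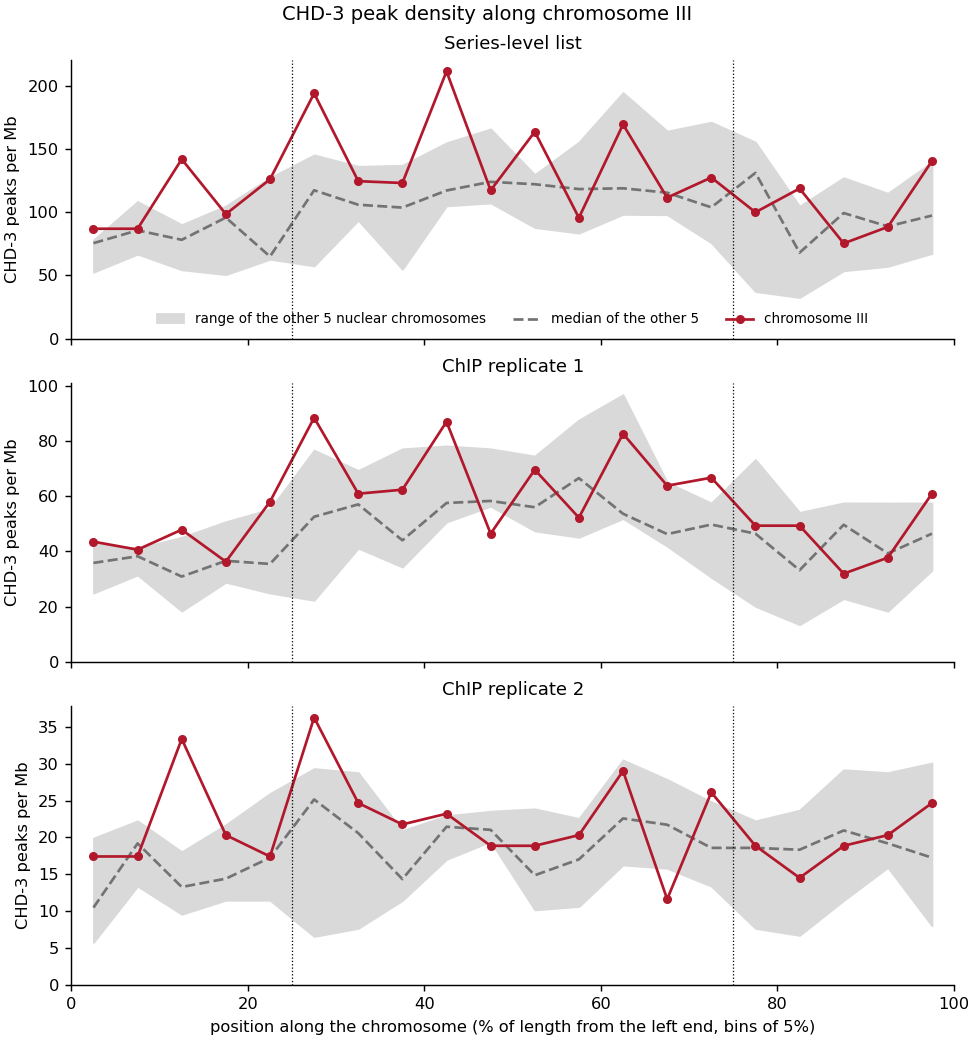
Peaks per Mb (y axis, from 0) in bins of 5% of chromosome length (x axis), 1 panel per list, for III (red) and for the other 5 nuclear chromosomes (grey range, dashed median); dotted lines mark the arm boundaries at 25% and 75%. III rises above the grey range at 10 to 15%, 25 to 30% and 40 to 45% in all 3 panels.

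In fixed windows of 1 Mb the densest stretch of III by series-level peaks was 5000001 to 6000000, with 180 series-level, 87 replicate 1 and 24 replicate 2 peaks. Replicate 1 peaks covered 25.3% of that window. Then came 3000001 to 4000000 with 178, 78 and 31 peaks, and 8000001 to 9000000 with 153, 78 and 23. The window at 3000001 to 4000000 was the densest on III in replicate 2, and the window at 5000001 to 6000000 the densest in replicate 1.

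The sparsest full windows by series-level peaks were 12000001 to 13000000 (72 series-level, 35 in replicate 1, 16 in replicate 2), 1 to 1000000 (77, 40 and 16) and 2000001 to 3000000 (97, 39 and 19). All 3 lay in the arms. Across the 13 full windows, replicate 1 and replicate 2 counts were correlated with a Spearman coefficient of 0.69. This describes windows that share both libraries and lie side by side, and the last, partial window is left out.

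The windows with the lowest and highest ratio of replicate 1 to replicate 2 peaks are given as a description of the range. Replicate 1 had 1.67 peaks for each peak of replicate 2 at 1000001 to 2000000, where replicate 2 reached 30 peaks, its second highest. It had 4 for each at 9000001 to 10000000, with 68 peaks against 17. Whether the ratio varies along III beyond counting error was not tested.

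Among full windows of 100 kb, the median one on III held 12 series-level peaks, 6 of replicate 1 and 2 of replicate 2. The most were 33 at 5900001 to 6000000, where replicate 1 had 14 peaks covering 44.6% of the window and replicate 2 had 4. The second was 6300001 to 6400000, with 32 series-level, 5 replicate 1 and 4 replicate 2 peaks. The third, at 6100001 to 6200000, had 29, 9 and 4. These 3 windows lay within 500 kb of one another in the centre. The partial last window, from 13700001 to the end, held 30 series-level peaks in 83.7 kb, or 358 per Mb, a higher density than any of the 3. It had 7 replicate 1 and 4 replicate 2 peaks. Of its 30 series-level peaks 10 were in neither replicate, against 3 of 33, 0 of 32 and 1 of 29 in those windows.

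The sites at which both replicates and the series-level list met were spread over all 3 parts of III. By the rule, the 10 highest-scoring series-level peaks of III that overlap a peak of each replicate are given, and 6 lay in the centre, 2 in the left arm and 2 in the right arm. This was near the split of all 477 such peaks of III, of which 281 lay in the centre and 196 (41.1%) in the arms. A score is the authors' own value per peak, and its scale is not given in the sources used here, so scores are compared within a list only. In replicate 1 a score of exactly 3100 recurred, in 104 of the 783 peaks of III (13.3%), against 8.95% on V to 12.0% on X elsewhere.

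The highest-scoring site, from 5210978 to 5211833 in the centre, scored 84.68 in the series-level list. It fell within a replicate 1 peak of 2471 bp (score 3100) and a replicate 2 peak of 1497 bp (score 628). The second was nearby at 5030890 to 5031816 (series-level score 78.07), within a replicate 1 peak of 1869 bp and a replicate 2 peak of 1525 bp. The third, in the right arm at 13061530 to 13063584 (75.33), was the summit of a wide domain, a replicate 1 peak of 15030 bp, and replicate 2 had a peak of 3210 bp there. These leading sites were thus compact in 2 cases and part of a broad domain in the other.

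The site at 3953018 to 3956042 (series-level score 66.72) was 3025 bp wide and lay within replicate 1 and replicate 2 peaks of 7577 bp and 3458 bp. The one at 9533474 to 9534529 (65.38) had peaks of 1825 bp and 1722 bp. The one at 11159983 to 11161110 (64.70), in the right arm, had peaks of 1794 bp and 1509 bp, and its replicate 1 score of 1977 was the lowest of the 10. Of these 3, the latter 2 had nearly the same width in both replicates.

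The site at 4378397 to 4379261 (62.19) was compact, with peaks of 1902 bp and 1664 bp. In the left arm lay 1615991 to 1616812 (61.35; peaks of 1686 bp and 1801 bp) and 3271345 to 3272664 (60.27; peaks of 3458 bp and 3066 bp). The last, at 3896970 to 3898042 (57.43), scored 3036 in replicate 2, the highest replicate 2 score among the 10, which otherwise ran from 484 to 799. The last of the 10 by series-level score thus led them by replicate 2 score.

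Peaks on III were wide in the replicates and narrow in the series-level list. Replicate 1 peaks had a median of 1791 bp (quartiles 1277 and 2819 bp) and replicate 2 peaks one of 1668 bp (1290 and 2608 bp). The series-level median was 332 bp (209 and 606 bp). On the other chromosomes together the medians were 1685, 1683 and 335 bp. The median on III in replicate 1 was the highest of the 6 chromosomes and in replicate 2 it ranked 5, so the replicates did not give III the same place in width. Over the replicates the median width was 1730 ± 87.0 bp (SD, n = 2).

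In replicate 2 the upper quartile and the 90th percentile of width were highest on III, but the widest peak, of 15852 bp, lay on X. The upper quartile of 2608 bp on III compared with 2280 bp on X to 2429 bp on V. The 90th percentile of 3990 bp compared with 3402 bp on IV to 3727 bp on X. In replicate 1 the 90th percentile, 4901 bp, was second to the 4953 bp of X. On III 77 replicate 1 peaks (9.83%), 13 replicate 2 peaks (4.35%) and 4 series-level peaks (0.23%) spanned 5 kb or more. On the other chromosomes together these shares were 8.54%, 3.58% and 0.33%, so the series-level list had the smaller share on III. Single chromosomes exceeded III in the replicates too, X in replicate 1 (9.92%) and II in replicate 2 (4.48%).

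Width followed position in replicate 1. The median was 1912 bp in the centre of III, 1514 bp in the left arm and 1615 bp in the right arm. On each of the other nuclear chromosomes it was also highest in the centre. Of the 77 peaks of 5 kb or more on III, 62 lay in the centre (80.5%), against 69.9% on the other chromosomes together. V had a larger share than III, with 59 of 72. I (47 of 60) and II (47 of 61) were near III, while IV had 38 of 55 and X 50 of 97. In replicate 2 the medians on III were 1828 bp in the centre, 1500 bp in the left arm and 1628 bp in the right arm. The series-level medians on III did not follow this order, at 336 bp in the centre, 293 bp in the left arm and 345 bp in the right arm. Of the 104 replicate 1 peaks at a score of 3100, 78 lay in the centre and 13 in each arm. On the other chromosomes 283 of 435 such peaks (65.1%) lay in the centres, from 59 of 117 on X to 58 of 73 on V. The share on V was larger than on III, and that on II, 55 of 74, was near it.

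The widest series-level peak of III, 7709 bp in the centre at 6566755 to 6574463, matched peaks of nearly the same extent in both replicates, 8252 bp for replicate 1 and 8380 bp for replicate 2. Its series-level score was 17.84, its replicate 1 score 302 and its replicate 2 score 2519. It was thus a wide site that both libraries bounded alike. The next, 5650 bp at 12611996 to 12617645 in the right arm, had replicate peaks of 6783 and 5781 bp. The third, 5395 bp at 8982032 to 8987426, had replicate peaks of 9468 and 5714 bp.

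The next 2 series-level peaks by width had no counterpart in replicate 1. They lay in the left arm, 5000 bp at 2496939 to 2501938 and 4998 bp at 2077608 to 2082605, under replicate 2 peaks of 7335 and 5837 bp that scored 1678 and 1025.

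The widest peaks of replicate 1 were composites by the other lists. The peak of 19065 bp at 3862472 to 3881536 overlapped 13 series-level peaks and 3 of replicate 2. The peak of 19063 bp at 6339171 to 6358233, with a score of 180, overlapped 21 series-level peaks, the most for any replicate 1 peak on the 6 chromosomes, and 1 of replicate 2. The peak of 15196 bp at 7717482 to 7732677 overlapped 9 and 3. Whether occupancy is continuous across such peaks was not examined, as no coverage was used.

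The widest replicate 2 peak of III was of another kind. It spanned 15367 bp in the right arm at 13583984 to 13599350, overlapped 13 series-level peaks and met no peak of replicate 1. The next widest of replicate 2, 8380 bp at 6566445 to 6574824 and 7708 bp at 5936772 to 5944479, each overlapped a replicate 1 peak of similar width, 8252 and 8932 bp.

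Most CHD-3 sites that replicate 2 found on III were also found by replicate 1. Of its 299 peaks, 277 overlapped a replicate 1 peak by at least 1 bp, or 92.6% (95% exact interval 89.1 to 95.3%), against 88.8% over all nuclear peaks. Of the 783 peaks of replicate 1, 246 overlapped replicate 2, or 31.4% (28.2 to 34.8%), against 30.6% over all nuclear peaks. The background lay within the interval of replicate 1 and just below that of replicate 2, and the chromosomes ranged in replicate 2 from 79.8% on V to 93.9% on X, so III was second. By length the replicates shared 578 kb on III, or 29.0% of what replicate 1 peaks covered and 87.9% of what replicate 2 peaks covered.

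Stricter rules lowered the shares, on III as over all nuclear peaks. With a 50% reciprocal overlap, 165 replicate 2 peaks of III matched (55.2%), against 52.4% over all nuclear peaks, and 21.1% of replicate 1 peaks did, against 20.5%. With midpoints within 250 bp, 116 matched, 38.8% of replicate 2 against a background of 39.7%, and 14.8% of replicate 1 against 15.5%. Shares on III were therefore near the background under both.

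The replicate 1 peaks of III that replicate 2 shared were a median of 3198 bp wide and scored a median of 1996. The 537 unshared ones were a median of 1491 bp wide and scored 232. Width and score moved together here, and their separate parts in the overlap were not tested. In 218 one-to-one pairs on III, the replicate 1 peak was the wider in 199 (91.3%), and the median ratio of replicate 2 to replicate 1 width was 0.64, close to the 88.5% and 0.69 of the other chromosomes. The midpoints of these pairs were a median of 240 bp apart, and 197 bp in the 1072 pairs of the other chromosomes. Scores of the pairs on III had a Spearman correlation of 0.43 and widths of 0.65, and elsewhere 0.46 and 0.63. These describe pairs of overlapping peaks, which share their site.

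Every replicate 2 peak of III overlapped a series-level peak, 299 of 299, and 703 of the 783 replicate 1 peaks did (89.8%). Over all nuclear peaks 99.3% and 88.6% did, so the shares on III were near the background. The series-level list may have been called on these very reads, so this is no independent support. The highest-scoring series-level peak in a replicate peak lay near its middle, a median of 201 bp from the midpoint in replicate 1 and 87.5 bp in replicate 2. The signed medians were -8.5 and -19.5 bp, and it lay to the left of the midpoint in 365 of 703 replicate 1 peaks and in 174 of 299 replicate 2 peaks. It lay more than 1 kb away in 60 replicate 1 peaks and 13 replicate 2 peaks.

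**Figure D3:**
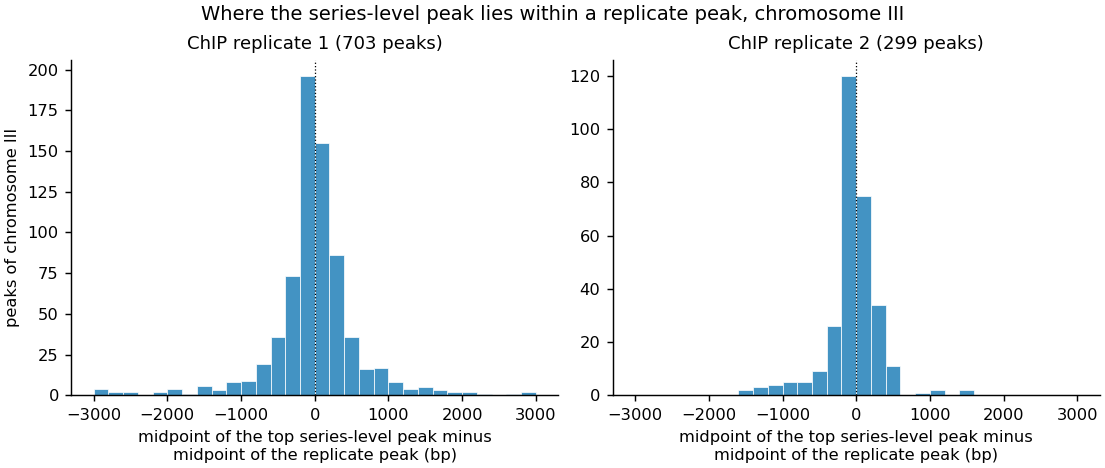
Number of replicate peaks of III (y axis) by the distance in bp (x axis) from their midpoint to the midpoint of the highest-scoring series-level peak that overlaps them; negative values lie to the left. Both panels are centred near 0, with 703 peaks in replicate 1 and 299 in replicate 2; the 5 replicate 1 peaks beyond 3000 bp stand in the end bins.

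Of the 1727 series-level peaks of III, 477 overlapped a peak of both replicates, or 27.6% (25.5 to 29.8%), against 26.0% over all nuclear peaks. A further 933 overlapped replicate 1 alone (54.0%, background 52.9%), 44 replicate 2 alone (2.55%, background 3.15%) and 273 neither (15.8%, background 18.0%). The share in neither lay below its background by more than its interval (14.1 to 17.6%), and the other 3 backgrounds lay within theirs. X had a lower share in neither, 15.1%, and II was near III at 16.3%. These intervals treat each peak as independent of its neighbours. With a 50% reciprocal overlap the share in both on III was 2.84%, against 3.11% over all nuclear peaks, and with midpoints within 250 bp it was 5.50%, against 5.77%.

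Peaks found in both replicates were the wide and high-scoring ones, with a median of 747 bp and a series-level score of 14.59 on III. Those in neither had medians of 203 bp and 4.82. A wide peak meets an overlap rule of 1 bp more easily than a narrow one, so the difference in width is not independent of the rule. Among the upper 25% of nuclear series-level peaks by score, 281 of the 447 on III were in both replicates (62.9%), and among the lowest 25% 43 of 395 were (10.9%). Over all nuclear peaks these shares were 61.0% and 8.90%.

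Support differed between the centre and the arms of III, much as it did over all nuclear peaks. In the centre 60.1% of series-level peaks were in replicate 1 alone, against 45.3% in the left and 46.3% in the right arm. Over all nuclear peaks these shares were 58.2%, 46.2% and 45.4%. Peaks in neither replicate made up 10.7% of the centre (8.82 to 12.8%), 24.4% of the left arm (20.1 to 29.1%) and 21.1% of the right arm (17.0 to 25.6%). Peaks in both replicates took 28.3%, 25.2% and 28.3%, nearly the same share in each part, against 26.4%, 24.8% and 25.9% over all nuclear peaks. For peaks in neither the same order held over all nuclear peaks, with 13.7% of the centre, 24.2% of left arms and 23.5% of right arms.

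**Figure D4:**
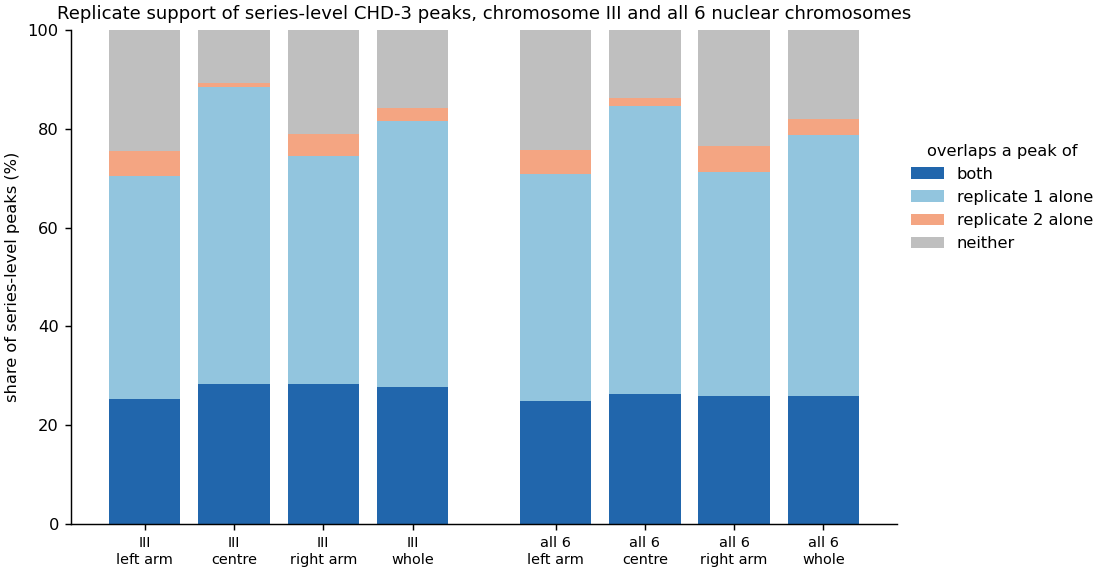
Stacked bars give the share (%, y axis) of series-level peaks that overlap a peak of both replicates, of 1 alone or of neither, for the parts of III (left) and for all 6 nuclear chromosomes (right). The grey share in neither is 10.7% in the centre of III and 24.4% and 21.1% in its arms.

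The sites that replicate 2 alone held were mostly in the arms of III. Of the 44 series-level peaks in replicate 2 alone, 35 lay in the arms (79.5%, 64.7 to 90.2%), against 41.1% of those in both replicates. Over all nuclear peaks these shares were 68.0% and 41.5%, and the 68.0% lay within the interval of III. Of the 22 replicate 2 peaks of III without a replicate 1 partner, 14 lay in the left arm, 5 in the centre and 3 in the right arm. The arms thus held 77.3% of them, against 67.9% over all nuclear peaks (144 of 212). The partner share of replicate 2 on III was accordingly 80.8% in the left arm (69.9 to 89.1%), 96.9% in the centre (92.8 to 99.0%) and 95.5% in the right arm (87.5 to 99.1%). The left arm of II (68.5%) and the left and right arms of V (77.8% and 58.2%) had lower shares than the left arm of III. On I, II and V the peaks in replicate 2 alone also lay mostly in the arms, at 78.0%, 82.9% and 75.9%, but on IV 30.8% did and on X 43.8%. Of the 35 peaks on the arms of III, 13 belong to a single replicate 2 peak, described next.

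III held the longest runs of neighbouring series-level peaks with the same incomplete support. These were sought after the values were seen. In the right arm, 13 neighbouring peaks from 13584194 to 13598957 were in replicate 2 alone, all under the single replicate 2 peak of 15367 bp. Their median width was 898 bp and their highest score 12.63. The longest such run elsewhere was 8, on II.

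In the centre, 25 neighbouring peaks from 7407315 to 7464160 overlapped no peak of either replicate. Elsewhere the longest such run was 13, on I. The run spanned 56.8 kb, its peaks covered 18.2% of that span, and it made up 9.16% of all III peaks in neither replicate. Replicate 1 had no peak from 18.5 kb before it to 0.614 kb after it, and replicate 2 none from 19.2 kb before it to 32.9 kb after it. The peaks were mostly small, at a median of 206 bp and a median series-level score of 3.80.

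One peak of this run was an exception. At 7444302 to 7448104 it was 3803 bp wide and scored 32.89, the widest and highest-scoring of all peaks in neither replicate on the 6 chromosomes. The 100 kb window at 7400001 to 7500000 held 28 series-level peaks, of which 26 were in neither replicate, with 2 peaks in replicate 1 and 1 in replicate 2. It thus had as many series-level peaks as the windows at 3800001 to 3900000 and 8700001 to 8800000, where replicate 1 had 11 and 12 peaks and replicate 2 had 7 in each.

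The longest run in replicate 1 alone also lay on III, with 28 peaks from 5834676 to 5931091 under 14 replicate 1 peaks. The longest elsewhere was 23, on V. For peaks in both replicates III had no such run: its longest held 9 peaks, from 6116542 to 6140605, and V reached 14.

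**Figure D5:**
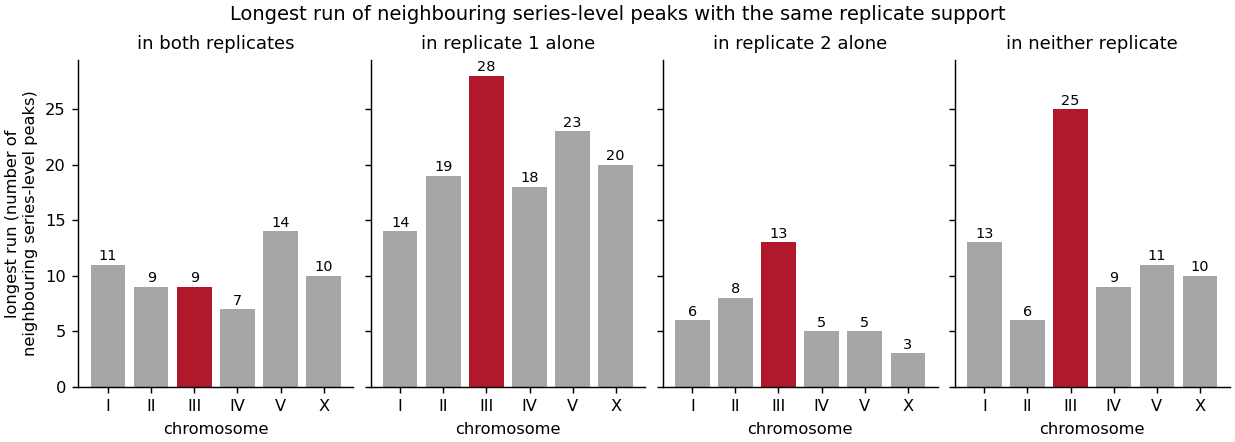
Longest run of neighbouring series-level peaks with the same replicate support (y axis, number of peaks) on each nuclear chromosome (x axis), 1 panel per kind of support. III (red) has the longest run for neither replicate (25), for replicate 1 alone (28) and for replicate 2 alone (13), but not for both (9, against 14 on V).

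Among single sites with support from 1 library, the highest-scoring in replicate 1 alone lay in the left arm at 1618939 to 1619281. Its series-level score of 61.35 equalled that of the site in both replicates at 1615991 to 1616812, and its replicate 1 peak was 2631 bp wide. The next were 3857003 to 3857419 (48.00) and 8344112 to 8344713 (41.45), and the replicate 1 peak at the latter scored 64.8, low in its list. In replicate 2 alone the highest were 1299648 to 1303055 and 10224502 to 10225490, both at 33.55, and 5353037 to 5356517 (31.48). The first of these matched a replicate 2 peak of 4255 bp with a score of 2664. After the wide peak already given, the highest in neither were 9408256 to 9408495 (22.44) and the last peak of the chromosome.

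Neighbouring midpoints were a median of 2.28 kb apart by the series-level list, 9.96 kb by replicate 1 and 26.0 kb by replicate 2. The distances elsewhere ran from 2.09 to 2.87 kb, 10.0 to 12.6 kb and 25.8 to 39.2 kb, so III was the tightest in replicate 1 and not in the others. Over the replicates the median distance was 18.0 ± 11.3 kb (SD, n = 2). When series-level peaks less than 1 kb apart were counted as 1 group, III had 980 groups, or 71.1 per Mb, against 52.0 on V to 66.3 on I. Of its peaks, 63.8% shared a group with another, against 61.2% on the other chromosomes together and 65.7% on X. Groups of 5 or more peaks numbered 52 on III, 54 on II and 61 on X.

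After the group of 13 in replicate 2 alone, the next largest group of III held 11 peaks, from 13057987 to 13072433 in the right arm. It included the third highest-scoring site and lay under 1 replicate 1 peak of 15030 bp and 5 replicate 2 peaks. A group of 10 from 5834676 to 5846787 in the centre opened the run in replicate 1 alone.

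III had few long stretches without a peak. Between neighbouring series-level peaks 4 stretches exceeded 100 kb, and the number elsewhere ran from 4 on X to 23 on V. In replicate 1 there were 6, against 8 on X to 37 on V, and in replicate 2 there were 35, against 45 on II to 73 on V. III is also the shortest chromosome.

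Some empty stretches were shared between lists. The stretch from 9957009 to 10094129 in the centre was the longest but 1 of the series-level list, at 137 kb, and held no whole peak of either replicate, though peaks of both reached over its edges. The one from 1308573 to 1418486 in the left arm (110 kb) lay almost wholly within the longest of replicate 1, from 1279925 to 1418166 (138 kb), and held no whole peak of any list. The longest, from 12698270 to 12837246 in the right arm (139 kb), held 1 whole replicate 1 peak. In replicate 1 a further stretch, from 2579191 to 2708805 (130 kb), held 3 series-level peaks and none of replicate 2.

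The longest empty stretches of replicate 2 were not empty in the other lists. The one from 12666231 to 13058824 (393 kb) held 11 whole replicate 1 and 23 whole series-level peaks. The ones from 9111526 to 9455820 (344 kb) and from 536426 to 831659 (295 kb) held 11 and 13 replicate 1 peaks, and 19 and 17 series-level peaks. Replicate 1 thus had peaks in each of these 3 stretches.

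The ends of III differed. At the left end all 3 lists had a peak on the first bases, from 1 to 296 in the series-level list, 2 to 666 in replicate 1 and 2 to 681 in replicate 2, the narrowest peak of each replicate on III. At the right end the last replicate 1 peak, of 8238 bp, ended at 13769655 and the last replicate 2 peak at 13767638. Beyond these the series-level list had a run of 7 peaks from 13777421 to 13783723 in neither replicate, and the outermost, from 13783350, scored 19.97.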

How the data were processed

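ChIP-seq peak lists of 2 CHD-3 ChIP libraries and 1 list of the whole series were used. Reads were aligned with BWA to ce10, per the submitters' processing notes, and coordinates are in WormBase WS220, per the file headers. The source field names MACS for the replicate lists and MACS v2 for the series-level list. Versions, thresholds, use of the input and the making of the series-level list: not given in the sources used here. The deposited score of each peak comes from the authors' caller on a scale no source names. No counts or coverage were used, so depth is unknown. The labels do not say whether the replicates came from separate cultures.

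Peaks on the 6 nuclear chromosomes were assigned to a part by midpoint. An overlap was 1 bp or more. Shares carry exact Clopper-Pearson 95% intervals. No chance test was run. The overlap and arm functions were tested on simulated data.

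Named regions followed a rule: the 10 highest-scoring series-level peaks in both replicates, the widest peaks, the 3 highest-scoring per other support class, the first and last peaks, the longest gaps, and the densest and sparsest windows. The members and this rule were chosen with earlier results of these data known. Alternatives were other overlap rules, other arm bounds, the upper 50% by score, merging, covered length, equal list lengths, shifted windows and leaving out a replicate. No gene or sequence is given, since the only gene table at hand is of another build, WBcel235. Computation was in Python 3.11.15 with scipy 1.17.1, pandas 2.3.3 and numpy 2.4.6, and plots were drawn in matplotlib 3.10.9.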

Additional observations from a re-analysis of the deposited data

How the results depend on the processing

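Of 44 alternatives to 11 values, 25 stayed within the spread of the replicates, the interval or 1.5 times the main count, and 19 moved. With 2 replicates this spread is wide, so staying within it says little. Where the SD of 2 replicates was the limit, leaving out a replicate could not move a value, so those outcomes were fixed in advance. The arm share of III moved from 43.5% to 38.6% by covered length, to 64.2% when arms were the outer 33% and to 34.6% with the outer 20%; the latter bounds change the length counted. The ratio of left to right arm moved from 1.04 to 1.15 with the outer 33%. In the upper 50% by score the median width rose to 2544 bp, the densest 1 Mb window fell to 33 peaks on average and the median distance rose to 39.0 kb, with fewer peaks in the lists. Series-level peaks in both replicates moved from 27.6% to 2.84% with a 50% reciprocal overlap, 5.50% with midpoints within 250 bp and 22.8% in the upper 50% by score. A series-level peak narrower than 50% of its replicate peak fails the reciprocal rule wherever it lies. The cut by score was made in every list compared, here and for the partner shares, so fewer peaks were left to overlap. Against the full replicate lists, 62.9% of the upper 25% of series-level peaks by score on III were in both. For replicate 2 peaks with a replicate 1 partner the share moved from 92.6% to 55.2%, 38.8% and 84.2%, and to 75.9% with equal numbers of top-scoring peaks. For replicate 1 it moved from 31.4% to 21.1%, 14.8% and, with equal numbers, 62.0%. Of the 10 highest-scoring sites, 2 kept both replicates under 50% reciprocal overlap, a rule that width alone can fail, and 7 with midpoints within 250 bp.

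Leaving out a replicate returns the other's value: 21.7 to 56.8 peaks per Mb, 40.1 to 46.8% in arms, a ratio of 0.99 to 1.09, a width of 1668 to 1791 bp, 31 to 87 peaks in the densest window and a distance of 9.96 to 26.0 kb. Covered length was set beside density as a share of the chromosome, 9.60 ± 6.83% of III (SD, n = 2). Without the runs of 25 and 13 peaks, an alternative added after the data were seen, III had 122.5 series-level peaks per Mb, still the most. No paired analysis was possible because both ChIP libraries form a single group. The unknown depth limits any reading of the shorter list of replicate 2.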
